A study of Mus musculus with 6 samples.

Results

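The 10 SOX genes Sox1, Sox2, Sox3, Sox4, Sox7, Sox9, Sox11, Sox12, Sox17 and Sox18 were taken by symbol from the 55471 gene identifiers of the count tables, and all 10 were found. The RNA came from epiblast stem cells of the mouse, pluripotent cells like those of the embryo before gastrulation, after 2 days of differentiation in serum as embryoid bodies, which are floating cell aggregates. The first group, Mixl1 induced (3 libraries), came from a line with doxycycline-inducible Mixl1 that had received 1 µg/mL doxycycline for the last 24 h. The second group, Mixl1 KO (3 libraries), carries a knockout of Mixl1, which encodes a homeobox factor of the primitive streak. The labels give no parent line, clone number, altered exon or driver for the transgene, and do not say whether KO cells received doxycycline, so line, drug and Mixl1 cannot be told apart. Both lines had been kept on irradiated mouse embryonic fibroblasts before aggregation.

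SOX proteins bind DNA through an HMG box, a domain that binds the minor groove and bends the DNA, and usually act together with a partner factor. They fall into groups by similarity of that domain. The SOXB1 genes Sox1, Sox2 and Sox3 act in neural progenitors, and Sox2 and Sox3 also in pluripotent epiblast. SOX2 pairs with POU factors, such as OCT4 in pluripotent cells. The SOXC genes Sox4, Sox11 and Sox12 act in neuronal and mesenchymal progenitors. Among SOXE genes, Sox9 directs cartilage and neural crest development. The SOXF genes Sox7, Sox17 and Sox18 act in vessels, and Sox17 also in definitive endoderm.

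The 250 bases before the RefSeq start site (GRCm38.p6) were available for 5 of the 10 genes, Sox1, Sox2, Sox4, Sox11 and Sox12. The windows of Sox2, Sox4, Sox11 and Sox12 are shown, because Sox2 and the SOXC genes carried most of the SOX RNA and Sox12 moved against its relatives Sox4 and Sox11. The windows are chr3:34649745-34649994 (plus strand) for Sox2, chr13:28953700-28953949 (minus strand) for Sox4, chr12:27342719-27342968 (minus strand) for Sox11 and chr2:152398047-152398296 (minus strand) for Sox12. Capitals mark CCAAT boxes on either strand and, in Sox12, the octamer ATGCAAAT that POU factors recognise.
Sox2: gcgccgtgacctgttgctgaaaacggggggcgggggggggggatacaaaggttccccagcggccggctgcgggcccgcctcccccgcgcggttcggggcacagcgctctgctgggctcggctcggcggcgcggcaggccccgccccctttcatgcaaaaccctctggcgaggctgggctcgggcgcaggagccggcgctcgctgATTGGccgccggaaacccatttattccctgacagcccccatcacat
Sox4: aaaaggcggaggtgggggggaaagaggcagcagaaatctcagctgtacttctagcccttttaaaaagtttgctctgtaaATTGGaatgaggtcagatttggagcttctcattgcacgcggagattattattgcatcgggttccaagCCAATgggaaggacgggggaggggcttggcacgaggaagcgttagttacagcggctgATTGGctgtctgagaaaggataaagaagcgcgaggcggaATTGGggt
Sox11: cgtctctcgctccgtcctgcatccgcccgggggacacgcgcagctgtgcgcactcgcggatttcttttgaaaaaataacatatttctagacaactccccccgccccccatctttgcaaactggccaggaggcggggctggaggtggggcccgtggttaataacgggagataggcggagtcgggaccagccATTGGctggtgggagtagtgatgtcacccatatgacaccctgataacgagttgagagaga
Sox12: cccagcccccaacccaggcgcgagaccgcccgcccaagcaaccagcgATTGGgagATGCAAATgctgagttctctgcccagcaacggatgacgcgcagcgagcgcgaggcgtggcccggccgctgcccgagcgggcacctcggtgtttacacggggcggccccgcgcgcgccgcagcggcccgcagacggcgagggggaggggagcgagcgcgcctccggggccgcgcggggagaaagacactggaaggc
The RefSeq starts of Sox2 and Sox11 lie upstream of their starts in GENCODE M21, so these windows do not adjoin the coordinates given for the genes below, while the windows of Sox4 and Sox12 overlap the first bases of theirs. Each of the 5 windows held a CCAAT match, with 4 matches in Sox4 and 1 in each of the others, against 33.8% of 32851 mouse promoter windows of this length. The octamer was found in the Sox12 window, 195 bases before the start, and in no other of the 5, against 1.60% of all windows. The SOX core ACAAT, held by 27.7% of all windows, was in none of the 5. Nor were the homeodomain core TAATTA (4.84% of windows) and the palindrome bound by paired-class homeodomain dimers (0.463%). Both strands were searched for every motif, and a match or its absence in these windows is a description only.

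Each library had between 17490426 and 21026423 reads on genes. Between replicates the chi-square per degree of freedom was 2.23 to 5.13, so none repeated another within sampling noise. Whether the triplicates were separate cultures is not stated, and the p-values below then cover a spread that may be technical. Mixl1 itself had 427.2, 441.1 and 429.2 CPM (the reads of a gene per 1000000 scaled reads on tested genes) in induced libraries and 39.9, 36.8 and 42.7 CPM in KO libraries. Marker genes were called by the edgeR quasi-likelihood test at an adjusted p of 0.05, where 31.0% of all genes tested were higher and 31.6% lower. The 8 primed epiblast markers were all detected, with 6 called higher and 2 lower in induced libraries. Their sum was 1690 to 1783 CPM there, against 1895 to 2034 CPM in KO libraries. Pou5f1, which fell, made up the largest part of this sum, at means of 807 CPM (induced) and 1294 CPM (KO). All 8 macrophage markers were detected and lower in induced libraries, summing to 45.4 to 56.0 CPM there, against 307.0 to 442.0 CPM in KO libraries, with none at 0. Of 10 fibroblast markers, also with none at 0, 6 were lower and 3 higher in induced libraries, summing to 460.4 to 627.6 CPM there, against 753.4 to 931.5 CPM in KO libraries. The part of these cells in any SOX difference was not tested. In bulk samples, fewer cells of a type and less RNA per cell cannot be told apart.

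Of the 10 SOX genes, 9 had enough reads to be tested, and 8 of them differed between the groups at an adjusted p of 0.05 (edgeR quasi-likelihood test), where 62.6% of all genes tested did. In the induced libraries 5 rose (Sox1, Sox2, Sox4, Sox9 and Sox11) and 3 fell (Sox3, Sox7 and Sox12). Across all 15091 genes tested, 31.0% were called higher and 31.6% lower, so the number of SOX genes called stands against a background where most genes differed. For these 8 SOX genes every induced library lay on the same side of every KO library, as it did for 67.1% of genes tested. The median log2 fold change was 0.23 over the 9 SOX genes and 0.00 over all genes tested. No SOX group moved as a block: SOXB1 and SOXC each had 2 members that rose and 1 that fell, and of the 2 SOXF members tested 1 fell and 1 did not pass. At a change of at least 2-fold, 2 of the 9 were higher and 3 lower, against 6.47% and 9.67% of genes tested.

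**Figure D1:**
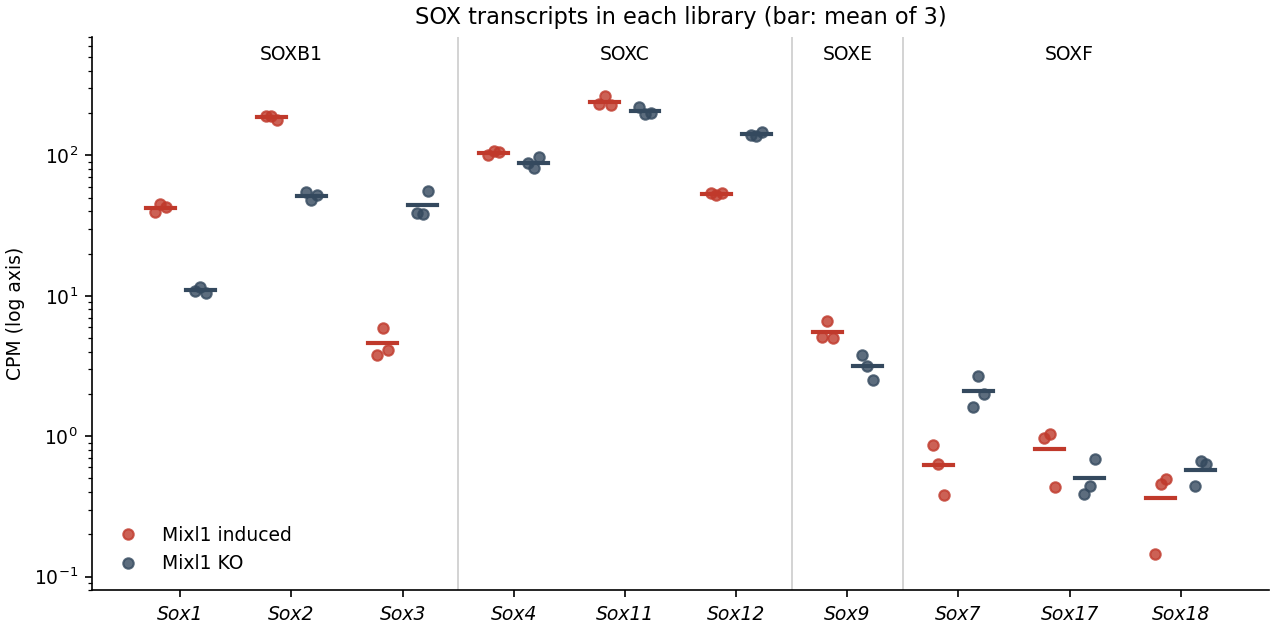
Level of each listed SOX gene in CPM (log axis) in the 3 Mixl1 induced libraries (red, left) and the 3 Mixl1 KO libraries (dark, right), with a bar at each mean. Sox1 and Sox2 sit higher and Sox3, Sox12 and Sox7 lower in induced libraries, while Sox17 and Sox18 overlap between the groups near or under 1 CPM.

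Among the SOXB1 genes, Sox2, which encodes the pluripotency and neural progenitor factor, had the highest mean level in both groups, although Sox3 exceeded it in KO replicate 3. Sox2 (ENSMUSG00000074637.7, a gene of 1 exon on chromosome 3, 34650405 to 34652461, plus strand) had 191.1, 191.9 and 179.9 CPM in induced libraries, against 54.8, 47.9 and 52.3 CPM in KO libraries. The groups lay far apart, and the log2 fold change was 1.86 (SE 0.054, edgeR adjusted p = 6.32e-18), or 3.63-fold. Sox1, the earliest SOX marker of committed neural ectoderm, rose too, at a lower level. Sox1 (chromosome 8, 12395295 to 12400126, plus strand, 1 exon) had 39.3, 45.3 and 42.6 CPM in induced libraries, against 10.8, 11.5 and 10.4 CPM in KO libraries, with a log2 fold change of 1.96 (SE 0.081, edgeR adjusted p = 3.21e-15).

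Sox3 went the other way and had the largest change of the 10. This X-linked SOXB1 gene, active with Sox2 in epiblast and neural plate, lies at 60891366 to 60893430 of chromosome X on the minus strand and has 1 exon. Its level was 3.81, 5.89 and 4.10 CPM in induced libraries, against 38.7, 38.2 and 56.2 CPM in KO libraries. Every induced library lay under every KO library, with KO replicate 3 above the other two. The log2 fold change was -3.28 (SE 0.24, edgeR adjusted p = 2.41e-05), so KO libraries held 9.65 times as much Sox3 RNA as induced libraries.

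Set side by side per kilobase of exon, these shifts changed the shares of the SOXB1 genes, with Sox2 the largest on average in both groups. Sox2 made up 90.3%, 88.4% and 89.0% of the summed SOXB1 level (CPM per kb) in induced libraries, against 55.9%, 52.8% and 46.4% in KO libraries. The Sox3 share was 1.79%, 2.70% and 2.02% in induced libraries, against 39.4%, 41.9% and 49.7% in KO libraries. Sox1 supplied 7.91% to 8.98% in induced libraries and 3.93% to 5.39% in KO libraries. The Sox2 to Sox3 ratio per kb was thus 50.4, 32.7 and 44.1 in induced libraries, and 1.42, 1.26 and 0.934 in KO libraries, where the pair had like levels. Summed over the 3 genes, the SOXB1 level was 102.2 ± 3.68 CPM per kb in induced libraries and 48.9 ± 5.43 CPM per kb in KO libraries (SD, n = 3 each).

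**Figure D2:**
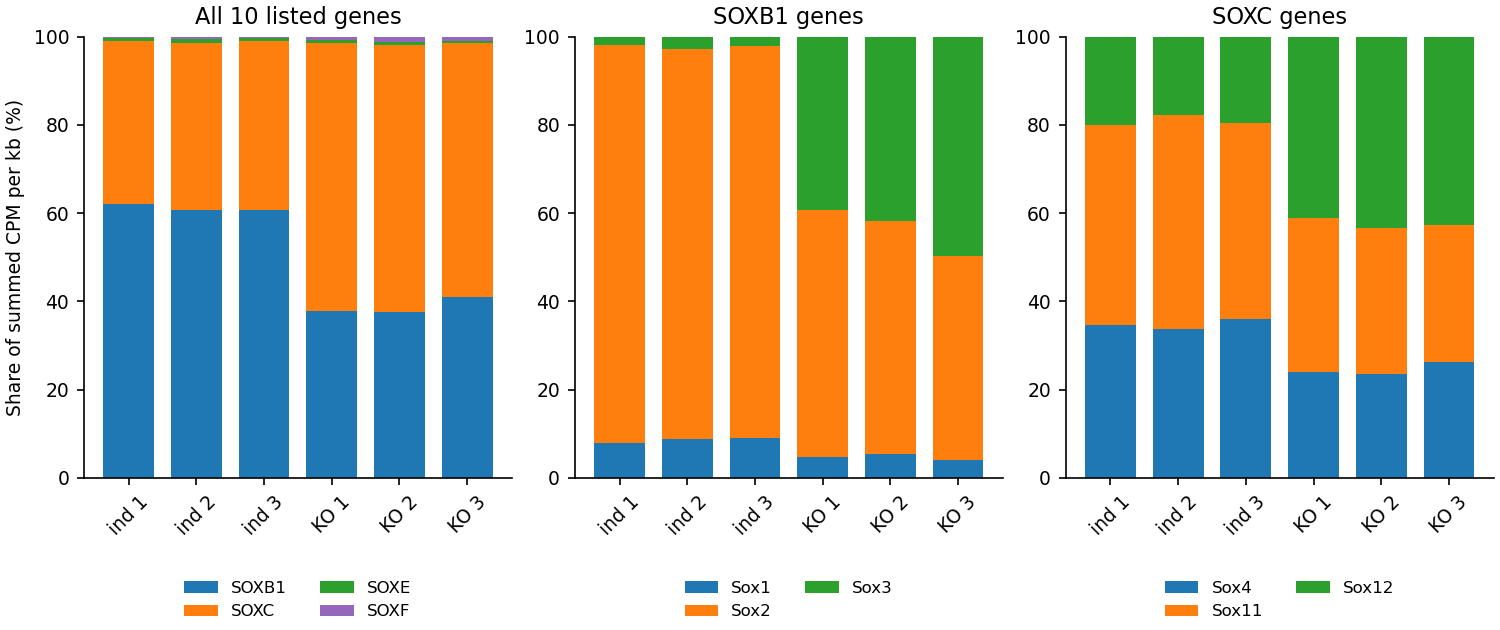
Share of the summed level in CPM per kb, in percent, for all 10 listed genes by SOX group (left), within SOXB1 (middle) and within SOXC (right), for induced libraries 1 to 3 and then KO libraries 1 to 3. SOXB1 takes 60.8% to 62.1% of the SOX level in induced libraries and 37.5% to 41.0% in KO libraries, and Sox3 (green, middle) takes 1.79% to 2.70% of the induced SOXB1 bars, against 39.4% to 49.7% of the KO bars.

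The SOXC genes were abundant in both groups, with small rises of Sox4 and Sox11 and a larger fall of Sox12. Sox4, a factor of progenitor survival and neuronal differentiation, had 101.1, 106.7 and 106.2 CPM in induced libraries, against 88.5, 81.0 and 97.3 CPM in KO libraries. Its groups came close without overlapping (log2 fold change 0.23, SE 0.058, edgeR adjusted p = 0.00137). Sox11, a neuronal and mesenchymal progenitor factor, had 231.0, 265.9 and 228.6 CPM in induced libraries, against 222.1, 196.7 and 199.3 CPM in KO libraries. The lowest induced library exceeded the highest KO library only narrowly (log2 fold change 0.23, SE 0.060, edgeR adjusted p = 0.00274). For Sox12, the weakest activator of the SOXC group in mouse reporter assays, the groups were well separated. It had 54.1, 51.8 and 53.6 CPM in induced libraries, against 140.6, 138.3 and 146.7 CPM in KO libraries. The log2 fold change of Sox12 was -1.42 (SE 0.050, edgeR adjusted p = 1.90e-16), with KO libraries at 2.67 times the induced level.

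Sox4 and Sox11 lie on chromosome 13 (28948919 to 28953713) and chromosome 12 (27334264 to 27342574), and Sox12 on chromosome 2 (152393611 to 152398063), each as 1 exon on the minus strand. Per kb, Sox12 made up 17.7% to 19.9% of the SOXC level in induced libraries and 41.1% to 43.4% in KO libraries. Sox11 supplied 44.6% to 48.6% in induced libraries and 31.1% to 34.8% in KO libraries. The summed SOXC level was 62.9 ± 2.64 CPM per kb in induced libraries and 75.2 ± 3.10 CPM per kb in KO libraries (SD, n = 3 each). Its log2 ratio of -0.26 stands beside 1.06 for SOXB1, and the SOXC libraries of the groups did not overlap. As a share of all 10 genes, SOXC took 36.8% to 38.2% in induced libraries and 57.7% to 60.9% in KO libraries.

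SOXF RNA was scarce. Sox7, which acts in endothelial specification and in primitive endoderm, was the SOXF gene with a clear difference. It had 18, 11 and 7 reads in induced libraries (0.868, 0.629 and 0.382 CPM), against 33, 49 and 38 reads in KO libraries (1.61, 2.70 and 2.00 CPM). No induced library reached a KO library, and the log2 fold change was -1.71 (SE 0.31, edgeR adjusted p = 5.21e-05). Sox7 has 2 exons on chromosome 14 (63943673 to 63950732, plus strand).

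Sox17, the definitive endoderm factor gene of chromosome 1 (4490931 to 4497354, minus strand), had 20, 18 and 8 reads in induced libraries and 8, 8 and 13 reads in KO libraries. Induced replicate 3 lay within the KO range, and the log2 fold change of 0.68 did not pass (95% interval -0.12 to 1.49, edgeR adjusted p = 0.130). Without that library it was 0.97 with an adjusted p of 0.0391 (edgeR), so 1 library decides the call. Sox18, a gene of vessel and lymphatic development on chromosome 2 (181669836 to 181671640, minus strand), had 3, 8 and 9 reads in induced libraries and 9, 12 and 12 reads in KO libraries. It had too few reads for the test, and with no filter on low counts its log2 fold change was -0.68 (SE 0.47, edgeR adjusted p = 0.296). Summed per kb, SOXF stood at 0.584 ± 0.093 in induced libraries and 1.10 ± 0.242 in KO libraries (SD, n = 3 each), 0.316% to 1.12% of the SOX level per library.

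The SOXE gene Sox9, the cartilage and neural crest factor, rose from a low level. It had 5.06, 6.57 and 4.97 CPM in induced libraries, against 3.81, 3.14 and 2.53 CPM in KO libraries, and the groups did not overlap. The log2 fold change was 0.80 (SE 0.17, edgeR adjusted p = 0.000422). Sox9 has 3 exons on chromosome 11 (112782224 to 112787760, plus strand).

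By CPM, without division by exon length, Sox11 led the 10 genes in both groups, at means of 242 (induced) and 206 (KO). Ranked per kb, the order of the 10 genes differed at the top between the groups. In induced libraries Sox2 led at 91.2 ± 3.27 CPM per kb, followed by Sox11 at 29.1, Sox4 at 21.8, Sox12 at 11.9, Sox1 at 8.78, Sox3 at 2.23 and Sox9 at 1.34. The library ranges of these 7 neighbours did not overlap, while those of Sox18, Sox7 and Sox17, between 0.170 and 0.225 CPM per kb, did. In KO libraries Sox12 led at 31.9 ± 0.973 CPM per kb. Behind it Sox2 at 25.1, Sox11 at 24.8, Sox3 at 21.5 and Sox4 at 18.6 overlapped with their neighbours, and Sox1 at 2.26 stood apart below them. Sox9 at 0.764 and Sox7 at 0.638 also overlapped in KO libraries, above Sox18 at 0.356 and Sox17 at 0.106.

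The authors' deposited table gave log2 fold changes in the same direction for all 10 genes. It listed 1.96 for Sox1, 1.86 for Sox2 and -3.27 for Sox3. For SOXC the authors' deposited table had 0.24 for Sox4, 0.24 for Sox11 and -1.41 for Sox12, and for Sox9 it had 0.80. For SOXF the authors' deposited table had -1.72 for Sox7, 0.64 for Sox17 (adjusted p 0.367) and -0.67 for Sox18 (adjusted p 0.433).

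Of all stretches of 50 bases in the listed transcripts, 0 were shared between SOX genes, and at most 0.774% of a gene's stretches were shared with any other gene on the same strand. Reads on the opposite strand made up 3.10% of Sox4 reads, where the annotation places the long noncoding gene Gm26735 across 54.6% of the exon, and 0.00% to 2.60% at the other 9. Sox2 lies within the long noncoding gene Sox2ot, on the same strand but with no shared exon bases. Sox2ot, chosen after its values were seen, had 20, 16 and 17 reads in induced libraries and 9, 7 and 7 reads in KO libraries, with a log2 fold change of 1.22 (SE 0.34, edgeR adjusted p = 0.00390). Sox1ot, which spans Sox1 in the same way and was also chosen after its values were seen, had 14, 7 and 7 reads in induced libraries and 1 read in each KO library, too few to test.

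Outside the listed genes, 8 of the other 10 SOX family genes were tested, and 5 rose and 2 fell, where 62.6% of all genes tested were called in either direction. Sox8, the SOXE relative of Sox9, had 16.5, 21.7 and 19.7 CPM in induced libraries, against 0.781, 0.937 and 1.05 CPM in KO libraries, a log2 fold change of 4.38 (SE 0.17, edgeR adjusted p = 8.58e-16). Sox21, a SOXB2 gene that counteracts SOXB1 factors in neural progenitors, had 14.0, 12.5 and 10.7 CPM in induced libraries, against 1.71, 1.27 and 1.58 CPM in KO libraries (log2 fold change 3.02, SE 0.16, edgeR adjusted p = 3.90e-13). Both were near 1 CPM in KO libraries and at least 10 CPM in induced ones. The SOXD genes Sox5, Sox6 and Sox13, whose proteins lack a transactivation domain of their own, rose as well. Their log2 fold changes were 2.28, 1.41 and 0.31 (edgeR adjusted p of 2.28e-05, 1.97e-07 and 1.71e-05). KO means of these SOXD genes were 0.480, 2.30 and 82.4 CPM, so the fold change of Sox5 rests on few KO reads.

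Sox10, a neural crest and glial factor of the SOXE group, fell by 0.40 on the log2 scale (edgeR adjusted p = 0.0437), with overlapping groups. Sox15, a relative with a role in muscle regeneration in mouse, fell by 0.96 (edgeR adjusted p = 0.0292). Neither call held under DESeq2 (adjusted p of 0.111 for Sox10 and 0.110 for Sox15). The Sox10 call was also lost without KO replicate 1 or 2 or induced replicate 1 or 2 (adjusted p of 0.137, 0.137, 0.139 and 0.123) and with no filter on low counts (0.0549), and that of Sox15 without KO replicate 1 (0.115) or induced replicate 3 (0.155), all by edgeR. Sox14 at -0.44 did not pass (edgeR adjusted p = 0.342, 95% interval -1.27 to 0.38). Sox30 had 5, 2 and 2 reads in induced libraries and 0, 0 and 1 in KO libraries and was not tested. Sry had 0 reads in every library, which allows up to 3 reads in each by counting error.

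**Figure D3:**
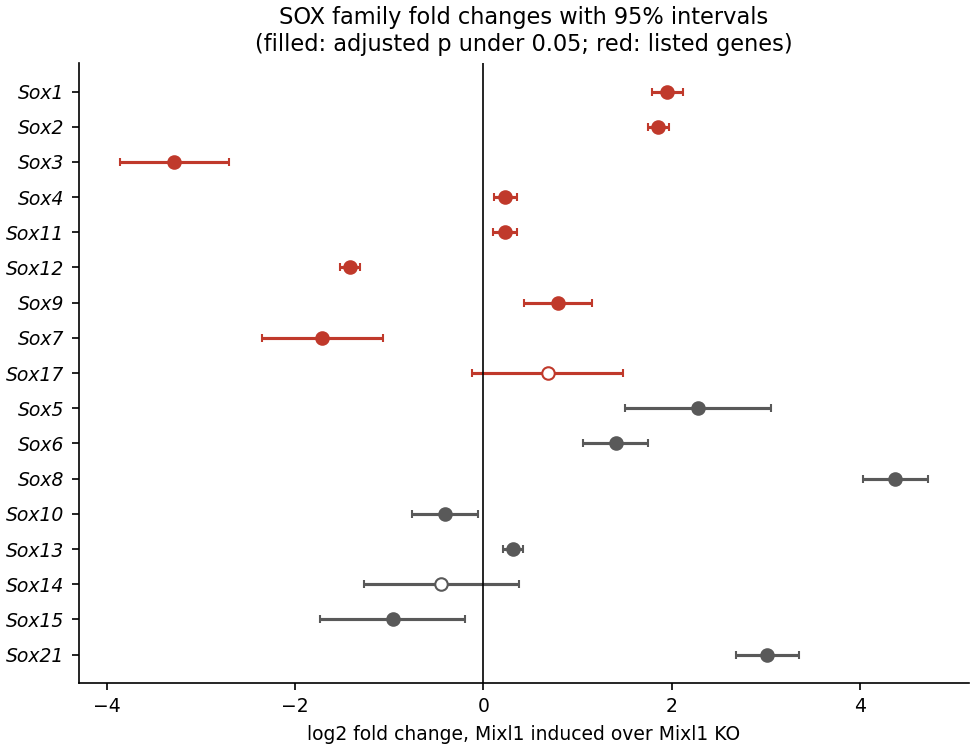
Log2 fold change of each tested SOX gene, Mixl1 induced over Mixl1 KO, with its 95% interval; the listed genes are red, the rest of the family grey, and filled points have an adjusted p under 0.05. Sox8 (4.38) and Sox3 (-3.28) lie farthest from 0 on either side, and the open points, Sox17 and Sox14, have intervals that cross 0.

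Of 8 partners of SOXB1 proteins, 6 rose and 1 fell in induced libraries, where 31.0% of all genes tested were called higher and 31.6% lower, and the median log2 fold change was 0.50. Pou5f1, which encodes OCT4, the partner of SOX2 in pluripotent cells, was the one that fell. It had 816.4, 782.3 and 822.6 CPM in induced libraries, against 1335, 1300 and 1246 CPM in KO libraries (log2 fold change -0.68, edgeR adjusted p = 1.41e-11). Esrrb, a nuclear receptor gene of naive pluripotency, had 91.8, 70.7 and 81.0 CPM in induced libraries, against 6.29, 7.55 and 8.47 CPM in KO libraries (log2 fold change 3.45). Sall4, a zinc-finger factor, and Chd7, a chromatin remodeller that binds SOX2 in neural stem cells, rose by 0.58 and 0.29. Each of these calls had an edgeR adjusted p of 9.50e-06 or less.

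Genes with known SOX2 and POU elements or in the same epiblast network divided evenly, 4 of 8 having risen and 4 fallen (median -0.07), so all 8 were called where 62.6% of all genes tested were. Nanog, a core pluripotency gene, had 48.6, 57.4 and 54.5 CPM in induced libraries, against 162.8, 158.3 and 162.7 CPM in KO libraries. Zscan10 fell by 0.70 on the log2 scale. Lefty1, a secreted NODAL inhibitor gene, and Otx2, an anterior epiblast factor gene, rose, by 0.97 and 1.34. All 4 had an edgeR adjusted p of 2.85e-10 or less.

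In the neural progenitor list 9 of 12 genes were tested, and 4 rose, 2 fell and 3 did not pass, with a median of 0.19. The share called in this list is near the 62.6% over all genes tested. Notch1, a receptor that maintains neural progenitors, had 195.6, 203.9 and 171.6 CPM in induced libraries, against 94.0, 93.2 and 90.6 CPM in KO libraries. Nes, the nestin gene with a SOX-bound neural enhancer, was lower, with 176.3, 174.5 and 152.8 CPM in induced libraries and 304.7, 322.3 and 325.5 CPM in KO libraries. Hesx1, an anterior forebrain factor gene, had a log2 fold change of 4.07 from a level near 0.05 CPM in KO libraries. Neurog2, a proneural gene, had a log2 fold change of 2.48 from a KO mean of 0.349 CPM. Gli2, a mediator of hedgehog signalling, fell by 0.31 on the log2 scale (edgeR adjusted p = 0.00129). The remaining 4 named in this paragraph had an edgeR adjusted p of 1.503e-06 or less.

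Neuronal genes listed as SOXC targets also went both ways, 6 of 10 tested being higher and 4 lower (median 0.38), beside 31.0% and 31.6% of all genes tested. Tubb3, the neuronal tubulin gene bound by SOX4 and SOX11, had 56.7, 60.6 and 69.1 CPM in induced libraries, against 17.4, 17.2 and 19.2 CPM in KO libraries. Gap43, a growth cone protein gene, rose with a log2 fold change of 1.30. Dcx, which encodes the migrating neuron protein doublecortin, was lower, at 2.51, 2.97 and 2.35 CPM in induced libraries and 33.8, 25.7 and 24.0 CPM in KO libraries. Map2, a dendritic microtubule protein gene, fell by 0.86. These 4 had an edgeR adjusted p of 2.505e-09 or less.

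Among the endoderm genes listed with SOXF factors, 7 of 11 tested rose, 2 fell and 2 did not pass, with a median of 0.86. Of all genes tested, 31.0% were called higher and 31.6% lower. Cer1, Gsc, Gata6 and Gata4 led the list, with log2 fold changes of 7.49, 4.43, 5.26 and 4.66, although Sox17 did not pass and Sox7 was lower. KO means of these leading genes were, in the same order, 0.276, 1.16, 0.582 and 0.474 CPM, so the sizes of the fold changes rest on low KO levels. Prdm1, a repressor gene of endoderm and germ cells, and Dab2, an endocytic adaptor gene of extraembryonic endoderm, fell by 1.75 and 1.23. The 6 had an edgeR adjusted p of 6.80e-07 or less.

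Of the vascular genes, 14 of 15 were tested, and 4 rose and 8 fell (median -0.47), beside 31.0% and 31.6% of all genes tested. Ephb4, a receptor of venous endothelium, and Prox1, the lymphatic homeobox gene downstream of SOX18, fell by 1.07 and 1.43. Efnb2, the arterial ligand gene of EPHB4, fell by 0.87. Kdr, a VEGF receptor gene, and Tek, the angiopoietin receptor gene, went up, with log2 fold changes of 3.78 and 3.27. The KO means of Kdr and Tek were 2.71 and 0.605 CPM, while those of Ephb4, Prox1 and Efnb2 were 312, 25.4 and 156 CPM. All 5 had an edgeR adjusted p of 7.37e-11 or less.

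**Figure D4:**
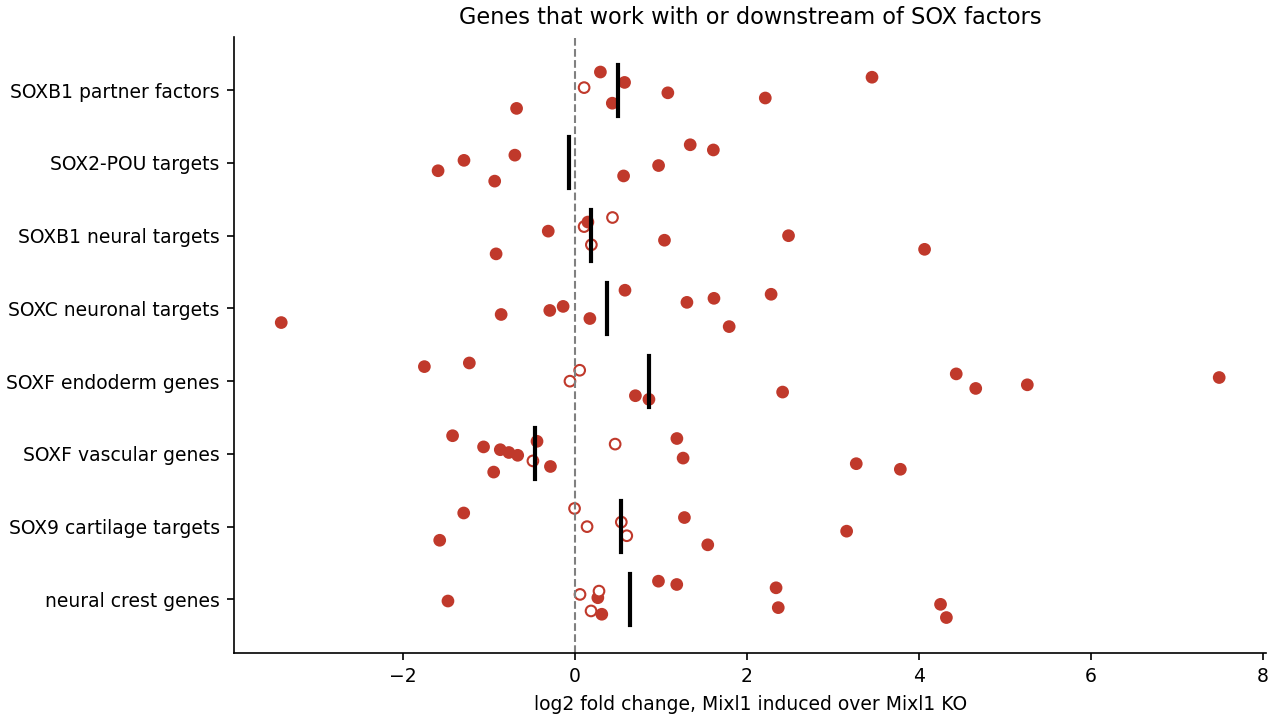
Log2 fold change, Mixl1 induced over Mixl1 KO, of the tested genes in 8 lists of SOX partners, targets and tissue genes; each point is a gene, filled where the adjusted p was under 0.05, black bars are list medians and the dashed line is the median of all genes tested. Every list has filled points on both sides of the dashed line, with medians between -0.47 for vascular genes and 0.86 for endoderm genes.

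Likeness of pattern was described by Pearson's r of log2 CPM over the 6 libraries, with 0.5 added to each CPM value. It was taken among 9457 or 9458 other protein-coding genes with at least 10 CPM on average, leaving out predicted models and clone names. Closest to Sox2 were Kctd12, Ppp2r1b and Selenot, each with r rounding to 1.00 and with log2 fold changes of 1.36, 0.67 and 1.08. In all, 440 genes had r above 0.99, since any gene whose rise is large against its spread resembles Sox2. Closest to Sox4 were Gdpd1, Pdss2 and Noa1 (r of 0.997), and closest to Sox7 were Camsap3, Pld3 and Pick1 (0.999, 0.998 and 0.997). Sox7 had 7 to 49 reads per library and induced levels near the added 0.5 CPM, so its matches rest on few reads.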

How the data were processed

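The titles of the 6 libraries gave their groups and replicate numbers. The kit was stranded and selected mRNA, per the labels' protocols. The authors deposited raw read counts per gene, with a column without strand and a column for each strand. The submitters' processing notes name bcl2fastq, STAR, DESeq2 and the mm10 build and no versions or annotation. The strand column analysed held 96.2% to 96.3% of stranded gene reads. Rows that name no gene, multimapped reads included, were 15.1% to 17.6% of reads and were left out. Per the file headers, the authors' DESeq2 table holds a mean normalised count (a signal value), log2 fold changes with standard errors, a Wald score, p-values and a −log10 of the adjusted p.

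GENCODE M21 (GRCm38, mm10) named 55230 identifiers. edgeR 4.0.16 in R 4.3.3 was run on the whole table with filterByExpr, TMM scaling and group as the only term, after being tested on simulated data. The quasi-likelihood test was two-sided, with Benjamini-Hochberg adjustment and a threshold of 0.05. Standard errors are the log2 fold change over the square root of F (median 0.084 over genes), and 95% intervals use the fitted degrees of freedom. CPM per kb divides by the union of annotated exons. Limits at 0 reads cover counting error only.

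The members and lists were chosen with earlier results of these data known. Named genes were the SOX genes, Mixl1, up to 4 called genes per list with the smallest p, up to 2 called against the list's majority, and the 3 genes closest in pattern to Sox2, Sox4 and Sox7; others are marked. Alternatives were DESeq2 1.42.0 size factors or test, no count filter, the column without strand, a replicate term, leaving out each library, and a threshold of 0.01.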

Additional observations from a re-analysis of the deposited data

How the results depend on the processing

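The 10 SOX genes, the counts of calls and the summed group levels gave 171 values under other settings. Of these, 170 kept their direction and their side of the threshold, or stayed within 1.5 times (counts) or a set limit (levels). That limit was the square root of the summed variances of the log2 level in both groups. The exception was Sox17, whose log2 fold change ran from 0.50 to 0.97 with 1 library left out and passed without induced replicate 3. With libraries left out, Sox4 ran from 0.17 to 0.30 and Sox11 from 0.16 to 0.28 on the log2 scale, with adjusted p of at most 0.0128 and 0.0208 (edgeR). Over all genes, 3909 to 4809 were called higher and 4036 to 5123 lower by the settings that kept every library. With the replicate number as a block, 4789 were higher and 4858 lower, and the same numbers of SOX genes, 5 and 3, passed. Sox3 had an adjusted p of 3.24e-09 with the block and 2.41e-05 without it (edgeR). Correlations of same-numbered deviations were low, 0.004 to 0.063, but they cannot settle whether the replicate numbers pair the samples. For Sox18, which the filter removed, only the fit with no filter was run. Reads were fewest for Sox17 and Sox18 among the 10 genes, with at most 20 per library. Some listed genes outside the SOX family are named here only because their calls moved. Pou3f3, Stmn2, Snai1, Twist1, Foxa1 and Dll4 lost their calls under some other settings, as did the markers Zic2 and Col1a1. Gli3, Pax3, Rasip1 and Col3a1 gained a call under some, so the counts called in the lists shift with the setting.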

Other observations

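Genes of neural crest, in which Sox8, Sox9 and Sox10 act, numbered 12. Of these, 8 rose, 1 fell and 3 did not pass in induced libraries, beside 31.0% of all genes tested called higher and 31.6% lower. Their median log2 fold change was 0.64, beside 0.00 over all genes tested. Foxd3, an early crest factor gene, had 18.5, 18.8 and 18.2 CPM in induced libraries, against 1.02, 1.21 and 0.526 CPM in KO libraries (edgeR adjusted p = 1.05e-15). Tfap2b, which encodes an AP-2 factor of crest and surface ectoderm, had a log2 fold change of 4.25, and Msx2, a homeobox gene of the neural plate border, of 0.97 (edgeR adjusted p of 1.52e-11 or less). The KO mean of Tfap2b was 0.679 CPM. Ets1, an ETS factor gene of cranial crest and vessels, fell by 1.48. Among the 8 that rose, Snai1 and Twist1, named for this reason only, lost their calls in some fits with 1 library left out.

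Of 9 cartilage genes known as SOX9 targets, 3 rose, 2 fell and 4 did not pass, with a median of 0.54, where 62.6% of all genes tested were called. Col2a1, the type II collagen gene with a SOX9-bound enhancer, had 267.7, 293.2 and 239.6 CPM in induced libraries, against 94.3, 97.3 and 83.0 CPM in KO libraries (edgeR adjusted p = 5.50e-10). Col11a1 and Hapln1, genes of cartilage matrix, had log2 fold changes of 3.16 and 1.27 from KO means of 0.938 and 1.91 CPM. Acan, the aggrecan gene, and Comp, another matrix gene, fell by 1.58 and 1.30, each under 2 CPM in every library.

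The nearest tested protein-coding genes on either side of each SOX gene were also read, by a rule set after the SOX values were seen. Next to Sox2, with a log2 fold change of 1.86, Dnajc19 at 569.1 kb and Atp11b at 1101.6 kb had 0.15 and 0.19. Beside Sox12, at -1.42, both neighbours were lower, Zcchc3 at 13.9 kb with -0.68 (SE 0.058, edgeR adjusted p = 1.02e-09) and Trib3 at 49.6 kb with -0.45 (SE 0.19, edgeR adjusted p = 0.0424). Both neighbours of Sox1 were lower as well, although Sox1 itself rose by 1.96. Arhgef7 had -0.25 and Tubgcp3 -0.15 (edgeR adjusted p of 0.000303 and 0.0198). Of all genes tested, 31.6% were called lower. The largest change among the 20 neighbours was that of Cmpk2, 854.4 kb from Sox11, with -1.08 (SE 0.21, edgeR adjusted p = 0.00011).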
